A study of Homo sapiens with 3 samples.

Results

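Protein phosphatase 2A (PP2A) was examined through 10 of its subunit genes in LNCaP and VCaP prostate cancer cells. The 10 genes were PPP2R2A, PPP2R2C, PPP2R2D, PPP2R1A, PPP2R1B, PPP2CA, PPP2CB, PPP2R5A, PPP2R5C and PPP2R5E, out of 33423 genes listed in the 3 count tables together. The set was built around PPP2R2A, which was selected on its measured values in these libraries, namely a high level in LNCaP and a level at or near 0 in VCaP. Its level is therefore described here without a test. The other 9 genes had a row in all 3 tables, while PPP2R2A had none in the treated VCaP table and was counted as 0 there.

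PP2A is a serine/threonine phosphatase that removes phosphate from a wide range of proteins. The enzyme is built from a scaffold subunit (A), a catalytic subunit (C) and an exchangeable regulatory subunit (B) that directs it to its substrates. The B subunits fall into families, of which B55 (PPP2R2 genes) is known for the exit from mitosis, B56 (PPP2R5 genes) for work at centromeres and kinetochores and in growth factor signaling, and the PR72 proteins (PPP2R3 genes) and the striatins make up the rest. The question asked of these data was which B subunit transcripts were present in cells in which PPP2R2A transcripts were absent.

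Single-cell RNA-seq was performed by Drop-seq, in which droplets join a cell with a barcoded bead and each captured mRNA receives a unique molecular identifier (UMI). LNCaP–ENZ168 was LNCaP exposed to 10 µM enzalutamide (ENZ), a drug given against prostate cancer, for 168 h. VCaP–ENZ48 was VCaP exposed to 10 µM ENZ for 48 h, and VCaP parental was VCaP kept in 0.1% DMSO, the vehicle, for 48 h. Both are established lines labelled ENZ-sensitive, and each group was 1 library. The lines were grown in different media, so that line, exposure time and medium cannot be told apart between LNCaP–ENZ168 and the VCaP libraries. Against VCaP parental, exposure to ENZ cannot be told apart from these either, as no LNCaP library without ENZ was among those used here.

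The libraries held 944 to 997 cells and 6313283 to 19515202 UMIs after filtering, with a median of 5389 UMIs a cell in LNCaP–ENZ168, 17817 in VCaP parental and 11224 in VCaP–ENZ48. No cell barcode was shared between libraries. Levels are UMI counts scaled to 1000000 UMIs for the library (CPM), with 95% intervals that cover counting error only, and a count of 0 allows up to 3 UMIs, or 0.475, 0.154 and 0.210 CPM in the order above. No test was made, since each group was 1 library and cells are not replicates, and a difference between intervals compares these libraries, not conditions. The median log2 ratio over genes averaging 10 CPM or more was 0.65 for LNCaP–ENZ168 over VCaP–ENZ48 and 0.57 over VCaP parental. Differences in CPM between the lines include that shift. The VCaP libraries stood apart from LNCaP–ENZ168 in depth and in barcodes ending in N, a mark of repaired bead barcodes, which made up 21.7% of cells in LNCaP–ENZ168, 86.2% in VCaP parental and 86.6% in VCaP–ENZ48. No marker went against its label. ERG, which the TMPRSS2 fusion drives in VCaP, had 0 UMIs in LNCaP–ENZ168 and 105 and 57.1 CPM in VCaP parental and VCaP–ENZ48. EPCAM stood at 173, 428 and 325 CPM, KRT8 at 176, 98.4 and 208, and KRT18 at 460.5, 320.5 and 404. The leukocyte gene PTPRC had 0, 1 and 1 UMIs, the endothelial gene PECAM1 had 0, 2 and 0, and the fibroblast gene COL1A1 had 10, 8 and 12.

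PPP2R2A encodes B55 alpha and lies on chromosome 8 from 26291508 to 26372680 (GRCh38). It had 2954 UMIs in LNCaP–ENZ168, 1 in VCaP parental and 0 in VCaP–ENZ48. The level in LNCaP–ENZ168 was 468 CPM (95% interval 451 to 485), the highest of the 10 genes in that library. The VCaP parental level was 0.0512 CPM (0.00130 to 0.286), below the level of the 3 UMIs that a count of 0 allows. With VCaP–ENZ48 taken at 3 UMIs for the library, LNCaP–ENZ168 was 2231-fold higher, leaving out the counting error of LNCaP–ENZ168.

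PPP2R2A UMIs were found in most LNCaP cells, and the part of free RNA in that share was not tested. Of 944 LNCaP–ENZ168 cells, 844 (89.4%) had at least 1 UMI, 471 had 3 or more, and the highest cell had 25. The 100 cells without one were shallower, with a median of 4254.5 UMIs against 5586 in cells with one. After each cell was thinned to 2000 UMIs to remove depth differences, 57.8% (54.6 to 61.0) of LNCaP–ENZ168 cells still had a UMI, and the variance of the thinned count was 1.20 times its mean. No thinned VCaP cell had one. The only VCaP cell with a PPP2R2A UMI had 28064 UMIs in all, 7 of them from ERG, 2 from MME and 0 from BNIP3L. MME, named here after its values were seen, had 16874 UMIs in LNCaP–ENZ168, and in VCaP parental it had 237 UMIs spread over 162 of 997 cells.

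**Figure D1:**
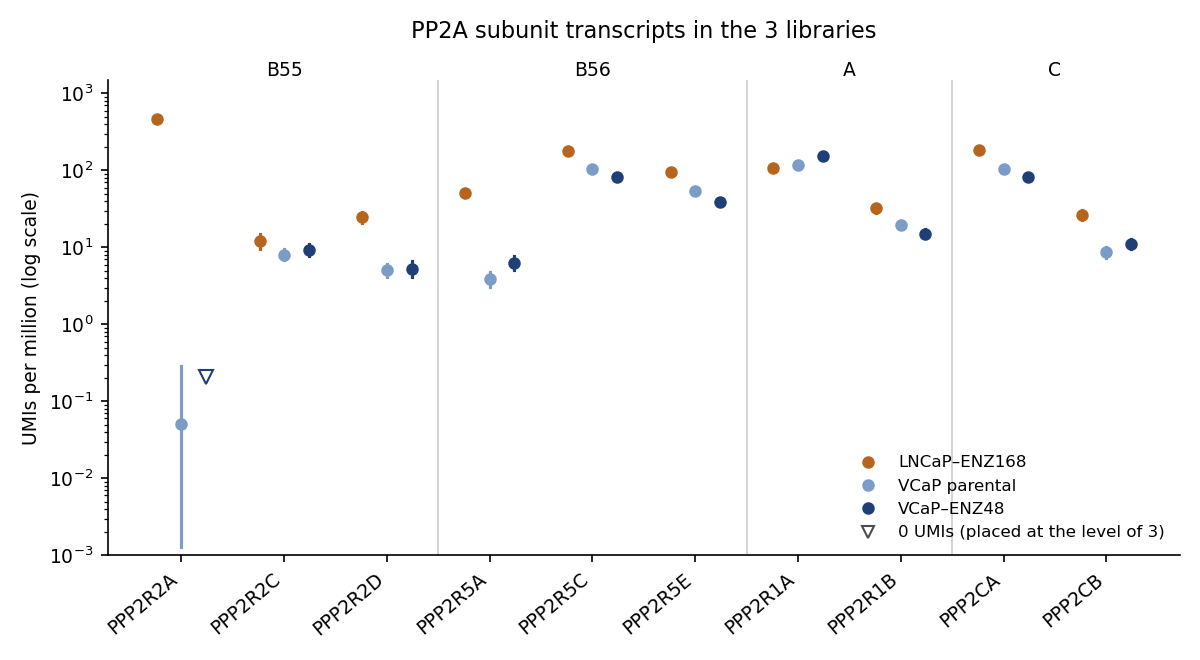
Level in CPM (UMIs scaled to 1000000 per library, log scale) of the 10 PP2A genes, grouped by subunit type, with 1 point per library and lines for exact Poisson 95% intervals, and an open triangle for a count of 0 placed at the level of 3 UMIs. PPP2R2A stands at 468 CPM in LNCaP–ENZ168 and near 0 in both VCaP libraries, while the other 9 genes were measured in all 3.

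The other B55 genes were present in VCaP, at low levels. PPP2R2C (B55 gamma, chromosome 4, 6320578 to 6563600) had 76 UMIs in LNCaP–ENZ168, 157 in VCaP parental and 134 in VCaP–ENZ48. These were 12.04 (9.48 to 15.1), 8.05 (6.84 to 9.41) and 9.37 (7.85 to 11.1) CPM, and the LNCaP and VCaP–ENZ48 intervals overlapped. PPP2R2D (B55 delta, chromosome 10, 131901008 to 131959834) had 156, 99 and 76 UMIs in the same order. Its levels were 24.7 (21.0 to 28.9), 5.07 (4.12 to 6.18) and 5.31 (4.19 to 6.65) CPM, with LNCaP–ENZ168 above both VCaP libraries and the VCaP intervals overlapping.

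PPP2R2B (B55 beta), which is not among the 10 genes but completes the B55 family, had the opposite pattern to PPP2R2A. It had 0 UMIs in LNCaP–ENZ168, 87 in VCaP parental and 171 in VCaP–ENZ48, or 4.46 (3.57 to 5.50) and 11.96 (10.2 to 13.9) CPM in the VCaP libraries. Against 3 UMIs for the LNCaP library, VCaP parental was 9.38-fold and VCaP–ENZ48 25.2-fold higher, leaving out the counting error of the VCaP libraries. In VCaP–ENZ48, 129 of 947 cells (13.6%) had a PPP2R2B UMI, against 76 of 997 (7.62%) in VCaP parental and 0 of 944 in LNCaP–ENZ168. After thinning the shares were 1.42% (0.757 to 2.41) and 1.00% (0.482 to 1.84), and those intervals overlapped.

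The makeup of the B55 transcripts differed between the libraries. In LNCaP–ENZ168, 92.7% (exact Clopper-Pearson 95% interval 91.8 to 93.6) of 3186 B55 UMIs came from PPP2R2A, 4.90% from PPP2R2D and 2.39% from PPP2R2C, and the 0 UMIs of PPP2R2B allow a share of up to 0.0942%. In VCaP parental, 45.6% (40.3 to 51.1) of 344 UMIs came from PPP2R2C, 28.8% (24.1 to 33.9) from PPP2R2D, 25.3% (20.8 to 30.2) from PPP2R2B and 0.291% from PPP2R2A. In VCaP–ENZ48, PPP2R2B made up 44.9% (39.8 to 50.03) of 381 UMIs, PPP2R2C 35.2% (30.4 to 40.2) and PPP2R2D 19.9% (16.1 to 24.3), and the 0 UMIs of PPP2R2A allow up to 0.787%. The leading B55 gene was thus PPP2R2A in LNCaP, PPP2R2C in VCaP parental and PPP2R2B in VCaP–ENZ48, although the PPP2R2B and PPP2R2C intervals overlapped in VCaP–ENZ48. The PPP2R2B intervals of the VCaP libraries did not overlap. A UMI marks the 3′ end of 1 transcript, so levels and shares of different genes were compared without scaling to length.

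The remaining B55 genes did not bring the VCaP total to the LNCaP level. The summed level of the 4 B55 genes was 505 CPM (487 to 522) in LNCaP–ENZ168, 17.6 (15.8 to 19.6) in VCaP parental and 26.6 (24.0 to 29.5) in VCaP–ENZ48. A UMI of any B55 gene was present in 60.8% (57.6 to 63.9) of thinned LNCaP–ENZ168 cells, 4.01% (2.88 to 5.42) of VCaP parental cells and 3.60% (2.49 to 5.02) of VCaP–ENZ48 cells. The VCaP intervals overlapped in this measure, and both lay below that of LNCaP–ENZ168. PPP2R2A, the selected gene, alone gave 468 CPM in LNCaP–ENZ168 and a UMI in 57.8% of its thinned cells. PPP2R2C and PPP2R2D gave 12.04 and 24.7 CPM there, and PPP2R2B had 0 UMIs. The contrast of the sums therefore follows from the selection of PPP2R2A and is a description.

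**Figure D2:**
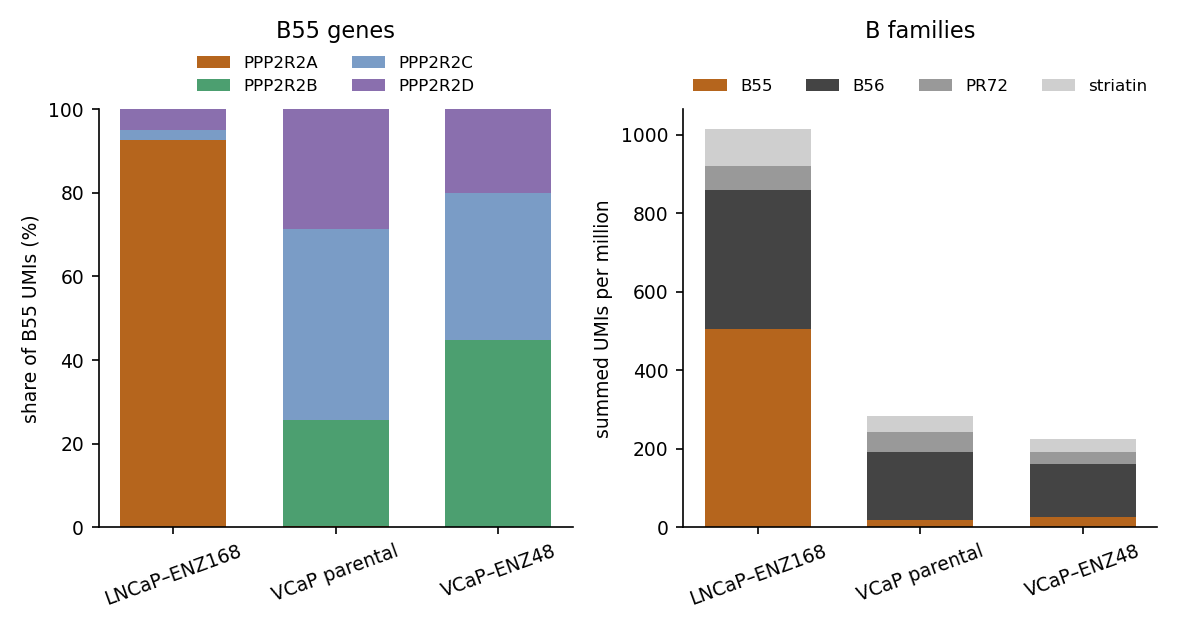
Left, share of B55 UMIs (%) from each of the 4 PPP2R2 genes in each library; right, summed CPM of the 4 B families, stacked from 0. The B55 part is 505 CPM in LNCaP–ENZ168 and 17.6 and 26.6 CPM in the VCaP libraries, where PPP2R2B, PPP2R2C and PPP2R2D share it and B56 is the largest family. PPP2R2A, selected on its values, gives 468 CPM of the LNCaP–ENZ168 part.

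B56 transcripts outnumbered those of B55 in VCaP. The 5 B56 genes summed to 355 CPM (341 to 370) in LNCaP–ENZ168, 174 (168 to 180) in VCaP parental and 136 (130 to 142) in VCaP–ENZ48. The ratio of B56 to B55 UMIs was 0.704 (0.667 to 0.744) in LNCaP–ENZ168, 9.87 (8.83 to 11.1) in VCaP parental and 5.10 (4.57 to 5.71) in VCaP–ENZ48. The LNCaP–ENZ168 value rests on PPP2R2A, the selected gene, which gave 2954 of the 3186 B55 UMIs there. PPP2R2C, PPP2R2D and PPP2R2B had 76, 156 and 0 in that library, beside 2244 B56 UMIs. The contrast with VCaP in this ratio, and in the family shares below, therefore follows from the selection and is a description. Of all B subunit UMIs, B56 made up 35.0%, 61.0% and 60.5%, B55 49.7%, 6.19% and 11.9%, PR72 5.92%, 18.3% and 12.6%, and the striatins 9.33%, 14.5% and 15.01%. B56 was therefore the largest B family in both VCaP libraries. Its own CPM there was lower than in LNCaP–ENZ168, a difference that includes the shift over all genes.

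Within B56 the same gene led in all 3 libraries. PPP2R5C (B56 gamma, chromosome 14, 101761709 to 101927989) had 1133, 2056 and 1172 UMIs with the libraries in the order LNCaP–ENZ168, VCaP parental, VCaP–ENZ48, which holds for all such lists. The levels were 179 (169 to 190), 105 (101 to 110) and 81.95 (77.3 to 86.8) CPM, and no pair of intervals overlapped. It carried 50.5%, 60.6% and 60.3% of the B56 UMIs. PPP2R5E (B56 epsilon, chromosome 14, 63371364 to 63543377) came next, with 606, 1050 and 560 UMIs, or 96.0 (88.5 to 104), 53.8 (50.6 to 57.2) and 39.2 (36.0 to 42.5) CPM. It followed the same order of libraries as PPP2R5C.

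PPP2R5A (B56 alpha, chromosome 1, 212285410 to 212361853) differed most between the lines among the 10 genes after PPP2R2A. It had 324 UMIs in LNCaP–ENZ168, 75 in VCaP parental and 90 in VCaP–ENZ48, or 51.3 (45.9 to 57.2), 3.84 (3.02 to 4.82) and 6.29 (5.06 to 7.74) CPM. Thinned cells with a UMI made up 9.65% (7.84 to 11.7), 0.602% (0.221 to 1.31) and 1.20% (0.600 to 2.14). It carried 14.4% of the B56 UMIs in LNCaP–ENZ168 and 2.21% and 4.63% in the VCaP libraries. PPP2R5B and PPP2R5D, the B56 genes outside the set, stayed at or below 21.1 CPM in every library.

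The scaffold genes ran in opposite orders over the libraries. PPP2R1A (A alpha, chromosome 19, 52170936 to 52229518), the more abundant scaffold gene in every library, had 684, 2319 and 2212 UMIs. Its levels were 108 (100.4 to 117), 119 (114 to 124) and 155 (148 to 161) CPM, so that VCaP–ENZ48 stood above both others and the intervals of LNCaP–ENZ168 and VCaP parental overlapped. PPP2R1B (A beta, chromosome 11, 111726908 to 111766389) had 204, 385 and 216 UMIs, or 32.3 (28.0 to 37.1), 19.7 (17.8 to 21.8) and 15.1 (13.2 to 17.3) CPM, the reverse order. The ratio of PPP2R1A to PPP2R1B UMIs was 3.35 (2.86 to 3.94), 6.02 (5.41 to 6.73) and 10.2 (8.90 to 11.8). PPP2R1A overlaps ZNF836 and PPP2R1B overlaps SIK2 on the opposite strand, and a strand setting of the counting is not given in the sources used here.

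Both catalytic genes had their highest CPM in LNCaP–ENZ168. Against the median of all genes tested, PPP2CA was less than 1.5-fold higher over both VCaP libraries, and PPP2CB reached 1.5-fold only over VCaP parental. PPP2CA (C alpha, chromosome 5, 134194035 to 134226073) had 1150, 2029 and 1168 UMIs, or 182 (172 to 193), 104 (99.5 to 109) and 81.7 (77.1 to 86.5) CPM. PPP2CB (C beta, chromosome 8, 30774457 to 30814314) had 168, 168 and 160 UMIs, or 26.6 (22.7 to 31.0), 8.61 (7.36 to 10.0) and 11.2 (9.52 to 13.1) CPM. The VCaP intervals of PPP2CB overlapped and those of PPP2CA did not. The proteins of the pair are nearly identical and their transcripts are alike in the coding part. Whether any 3′ end reads were shared between the 2 genes was not tested.

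The balance of subunit types also differed between the libraries. A UMIs per C UMI came to 0.674 (0.618 to 0.734) in LNCaP–ENZ168, 1.23 (1.16 to 1.30) in VCaP parental and 1.83 (1.71 to 1.96) in VCaP–ENZ48. B UMIs per A UMI were 7.22 (6.72 to 7.75), 2.06 (1.96 to 2.15) and 1.32 (1.25 to 1.40). With PPP2R2A left out, B per A was still 3.89 (3.61 to 4.19) in LNCaP–ENZ168, above both VCaP libraries. These are ratios of transcripts and were not measured on protein.

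The order of the 10 genes placed PPP2R2A, PPP2R1A and PPP2R5A differently in the lines. In LNCaP–ENZ168 PPP2R2A was followed by PPP2CA and PPP2R5C, whose intervals overlapped, then by PPP2R1A and PPP2R5E, which also overlapped, by PPP2R5A, by PPP2R1B, PPP2CB and PPP2R2D with overlapping neighbours, and by PPP2R2C. In VCaP parental the order ran from PPP2R1A through PPP2R5C and PPP2CA, which overlapped, to PPP2R5E, PPP2R1B, then PPP2CB and PPP2R2C, which overlapped, and PPP2R2D and PPP2R5A, which overlapped too. VCaP–ENZ48 kept that order of groups, except that PPP2R5A stood at 6.29 CPM and PPP2R2D at 5.31, with overlapping intervals. PPP2R2A came last in both VCaP libraries.

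**Figure D3:**
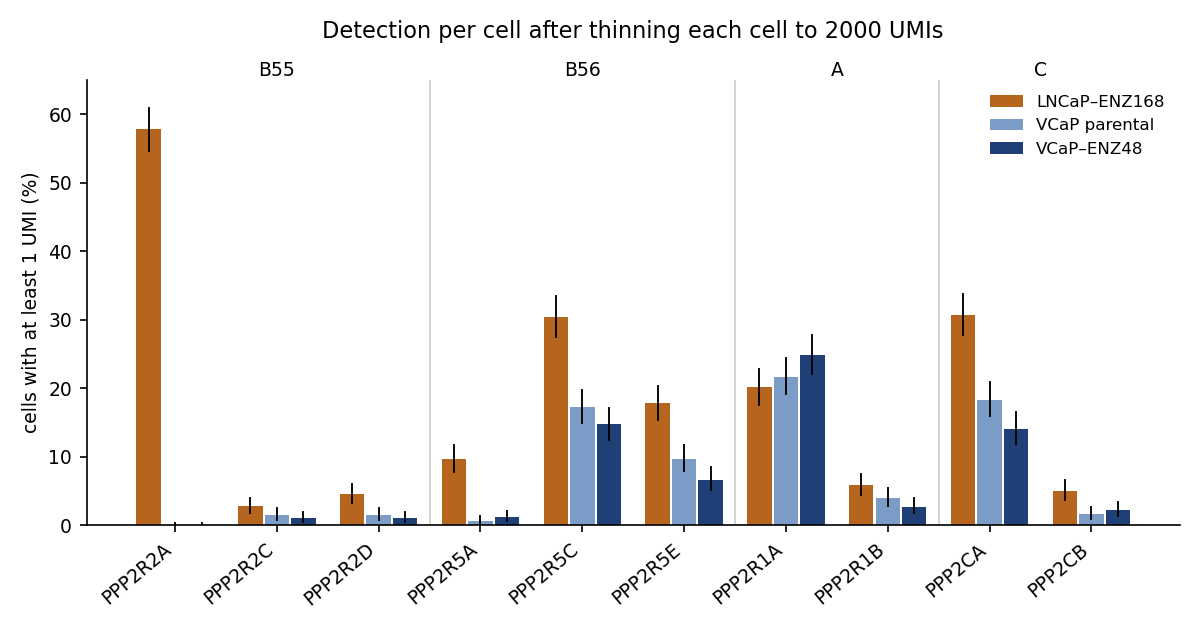
Share of cells (%) with at least 1 UMI of each gene after each cell was thinned to 2000 UMIs, with bars from 0 for each library and lines for exact Clopper-Pearson 95% intervals. PPP2R2A is found in 57.8% of LNCaP–ENZ168 cells and in none of the thinned VCaP cells. PPP2R1A is the only gene whose share is highest in VCaP–ENZ48, with an interval that overlaps those of LNCaP–ENZ168 and VCaP parental.

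Levels were next compared between libraries against the behaviour of all genes. For each pair of libraries the median log2 ratio of CPM + 1 over all tested genes was subtracted from that of each gene, where tested means an average of 10 CPM or more over the pair. A gene at least 1.5-fold from that median was called higher or lower. The median itself was −0.07 for VCaP–ENZ48 over VCaP parental, 0.65 for LNCaP–ENZ168 over VCaP–ENZ48 and 0.57 for LNCaP–ENZ168 over VCaP parental. The 1 CPM added to each level understates the ratios of genes near 0, and the intervals are of the plain ratio of counts. The comparisons share libraries, so they are not independent of each other.

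Between the VCaP libraries, none of the 10 genes was called. Those that did not reach 10 CPM on average were all 3 B55 genes, PPP2R5A and PPP2CB. Of the 5 tested genes 0 were higher and 0 lower, where 17.5% of 7729 genes tested were higher and 15% were lower. PPP2R1A had a relative log2 ratio of 0.44 (0.36 to 0.53), and PPP2R1B −0.30 (−0.57 to −0.07). PPP2CA had −0.28 (−0.39 to −0.18), PPP2R5C −0.29 (−0.40 to −0.19) and PPP2R5E −0.38 (−0.54 to −0.24). The 5 values had a median of −0.29, against 0 for all genes by construction.

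The genes below the minimum had relative log2 ratios above 0 with wide intervals, except PPP2R2A, which had 1 UMI in the pair. PPP2R5A stood at 0.66 (0.32 to 1.24), PPP2CB at 0.41 (0.12 to 0.77), PPP2R2C at 0.26 (−0.06 to 0.63) and PPP2R2D at 0.12 (−0.32 to 0.58). PPP2R2B, also below the minimum, stood at 1.31 (1.11 to 1.88). The PPP2R2C and PPP2R2D intervals included 0.

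Between LNCaP–ENZ168 and VCaP–ENZ48, all 10 genes were tested, with 4 higher and 1 lower in LNCaP–ENZ168, where 26.8% of 8854 genes tested were higher and 28.1% lower. The higher genes were PPP2R2A, whose ratio was the largest of all genes tested, PPP2R5A at 2.19 (2.03 to 2.73), PPP2R2D at 1.37 (1.16 to 1.98) and PPP2R5E at 0.62 (0.47 to 0.81). The lower gene was PPP2R1A at −1.16 (−1.29 to −1.04). PPP2CA, PPP2CB, PPP2R5C and PPP2R1B lay between 0.39 and 0.52, and PPP2R2C at −0.32 (−0.72 to 0.12). The call of PPP2R5E was lost when each cell was weighted the same. The median of the 10 was 0.51. PPP2R2A was selected on this contrast, so the count is a description.

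LNCaP–ENZ168 over VCaP parental gave 4 higher and 1 lower of 10 tested, where 28.4% of 8526 genes tested were higher and 30.2% lower. PPP2R2A again had the largest ratio of all, at 8.23. PPP2R5A stood at 2.86 (2.80 to 3.55), PPP2R2D at 1.51 (1.34 to 2.09) and PPP2CB at 0.95 (0.74 to 1.37), and PPP2R1A was lower at −0.71 (−0.83 to −0.58). PPP2R5E, at 0.25 (0.11 to 0.41), and PPP2R5C, at 0.19 (0.09 to 0.30), were not called here. PPP2R2C, at −0.05 (−0.41 to 0.41), was close to the median of all genes. Without centring on that median, 8 genes were higher and 0 lower in each of the LNCaP comparisons, PPP2R1A then standing at −0.51 and −0.13. So called, 53.1% of all genes tested were higher and 15% lower over VCaP–ENZ48, and 49.5% and 16.5% over VCaP parental.

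**Figure D4:**
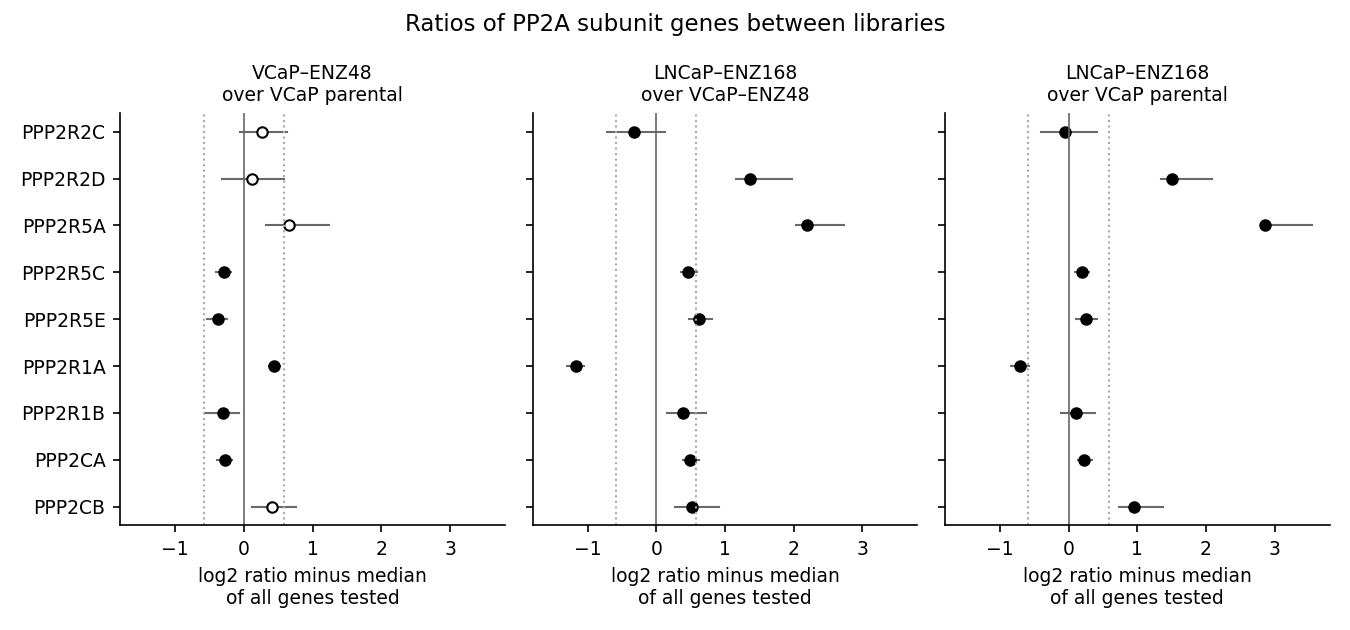
Relative log2 ratio (log2 ratio of CPM + 1 minus the median of all genes tested) of 9 PP2A genes in the 3 comparisons, with 95% counting intervals of the plain ratio, dotted lines at 1.5-fold, and open points for genes below 10 CPM on average. PPP2R2A is left out because its values of 8.22 and 8.23 lie off the scale. PPP2R5A and PPP2R2D lie to the right and PPP2R1A to the left of the dotted lines in both LNCaP comparisons.

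The wider PP2A list held 32 further genes, of which 31 were found and PPP2R3B was not. Between the VCaP libraries 2 of 22 tested genes were higher and 4 lower, beside 17.5% and 15% of all genes tested, with a median of −0.23. PTPA, an activator that helps assemble PP2A, stood at 9.84 CPM in VCaP parental and 18.0 in VCaP–ENZ48, a relative log2 ratio of 0.87 (0.66 to 1.21), and IGBP1, which binds free catalytic subunits, stood at 42.9 and 65.6 CPM, or 0.67 (0.54 to 0.82). CIP2A, an inhibitor of PP2A, stood at 53.3 CPM in VCaP parental and 6.71 in VCaP–ENZ48, a relative log2 ratio of −2.75 (−3.24 to −2.62). MASTL, the kinase that turns ENSA and ARPP19 into B55 inhibitors, stood at 18.4 and 3.71 CPM, or −1.98 (−2.69 to −1.83). PPP2R3C, of the PR72 family, and TIPRL, which binds catalytic subunits, were the other lower genes at −1.12 (−1.37 to −0.97) and −0.72 (−0.86 to −0.61). ENSA and ARPP19 themselves, at −0.55 (−0.62 to −0.49) and −0.39 (−0.52 to −0.28), were not called.

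In LNCaP–ENZ168 over VCaP–ENZ48, 7 of 25 tested genes of the wider list were higher and 2 lower, beside 26.8% and 28.1% of all genes tested, with a median of 0.22. MASTL led at 1.76 (1.58 to 2.52), followed by PPP4C, the catalytic subunit of the related phosphatase PP4, at 1.44 (1.29 to 1.68), CIP2A at 1.32 (1.11 to 1.84) and the striatin STRN3 at 1.32 (1.16 to 1.58). The lower genes were PPP4R3B, a PP4 regulator, at −0.95 (−1.14 to −0.78) and the inhibitor ANP32A at −0.61 (−0.69 to −0.52). Against VCaP parental, 7 of 25 were higher and 5 lower, beside 28.4% and 30.2% of all genes tested, with a median of −0.11. PTPA led at 1.26 (1.08 to 1.64), then PPP4C at 1.18 (1.05 to 1.37), BOD1, an inhibitor of B56-bound PP2A, at 1.08 (0.89 to 1.42) and IGBP1 at 0.91 (0.79 to 1.08). CIP2A, at −1.42 (−1.67 to −1.21), was lower here, as were ANP32A at −0.97 (−1.05 to −0.90), PPP4R3B at −0.92 (−1.10 to −0.76) and PPP2R3C at −0.74 (−0.95 to −0.53). CIP2A thus lay above the median of all genes against one VCaP library and below it against the other.

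The libraries differed in the share of cycling cells. Cells were called low-cycling at 4 or fewer UMIs of 97 S and G2M phase genes after thinning, the median of VCaP–ENZ48 cells. They made up 23.1% of LNCaP–ENZ168, 9.93% of VCaP parental and 64.9% of VCaP–ENZ48 cells, and 272, 115 and 438 cells lay within 1 UMI of that limit. Inside VCaP parental, the other cells over the low-cycling cells had relative log2 ratios of 2.92 (2.28 to 4.05) for CIP2A, 2.25 (1.41 to 4.01) for MASTL, 0.68 (0.42 to 0.97) for PPP2R5C, 0.34 (0.01 to 0.70) for PPP2R5E and 0.32 (0.08 to 0.58) for PPP2CA. PPP2R1A had −0.11 (−0.31 to 0.09). The ratios of these members differed in the other libraries. In VCaP–ENZ48, PPP2R5C had 0.17 (−0.01 to 0.34), PPP2R5E −0.29 (−0.57 to −0.03) and PPP2CA −0.04 (−0.21 to 0.14). In LNCaP–ENZ168, PPP2R5C had 0.18 (−0.02 to 0.39), PPP2R5E −0.06 (−0.33 to 0.21) and PPP2CA 0.03 (−0.17 to 0.23). In LNCaP–ENZ168 the same ratio was 2.36 (1.62 to 3.61) for CIP2A and 1.31 (0.66 to 2.21) for MASTL, but −0.08 (−0.20 to 0.04) for PPP2R2A, which stood at 489 CPM in low-cycling and 461 CPM in other cells.

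With low-cycling cells alone, 3 members no longer stood below 0 in the VCaP comparison. The relative log2 ratio of VCaP–ENZ48 over VCaP parental was 0.26 for PPP2R5C, 0.01 for PPP2CA and 0.003 for PPP2R5E, against values below 0 over all cells. In low-cycling cells the CPM intervals of VCaP parental and VCaP–ENZ48 overlapped for all 3. They were 56.6 to 81.7 and 72.4 to 83.8 for PPP2R5C, 72.3 to 100.4 and 76.1 to 87.8 for PPP2CA, and 34.3 to 54.6 and 37.5 to 45.9 for PPP2R5E. PPP2R1A kept 0.32 and PPP2R1B −0.24. CIP2A stood at 6.88 CPM (3.56 to 12.02) in low-cycling VCaP parental cells and 2.88 CPM (1.90 to 4.19) in low-cycling VCaP–ENZ48 cells, and MASTL at 3.44 (1.26 to 7.49) and 1.92 (1.14 to 3.04). Both differences had overlapping intervals, and the low-cycling VCaP parental values rest on 99 cells. Among those 99 cells the B55 genes had 23 UMIs, of which PPP2R2B made up 13.0% and PPP2R2C 52.2%.

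The genes next to PPP2R2A were examined because position had no part in the choice of the genes. Positions were matched by symbol for 69.3% of the listed genes, so the windows hold only part of the genes there. BNIP3L, a mitochondrial protein of mitophagy, is the next protein-coding gene of at least 10 CPM on the right, at 26383054 to 26505636. It had 2142 UMIs in LNCaP–ENZ168, 1 in VCaP parental and 4 in VCaP–ENZ48, or 339 (325 to 354), 0.0512 (0.00130 to 0.286) and 0.280 (0.0762 to 0.716) CPM. BNIP3L was thus high in LNCaP–ENZ168 and near 0 in both VCaP libraries, like PPP2R2A. The pseudogene SDAD1P1, which lies between them and whose reads may be shared with its parent gene, had 210, 13 and 19 UMIs. EBF2 had 11, 2 and 3, so that it was low in LNCaP–ENZ168 as well. PNMA2, which overlaps BNIP3L, had 49, 2 and 0, or 7.76 (5.74 to 10.3), 0.102 (0.0124 to 0.370) and 0 CPM. PNMA2 was thus also near 0 in both VCaP libraries, though below 10 CPM in LNCaP–ENZ168.

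The nearest genes on either side that VCaP transcribed at 1 CPM or more over its libraries were CDCA2 and DPYSL2. CDCA2, a chromosome protein of dividing cells, ends 784 kb before PPP2R2A and had 180, 947 and 48 UMIs. DPYSL2, a cytoskeletal regulator, starts 141 kb after it and had 190, 345 and 122. The 1006 kb between them held 5 listed genes, 4 of them protein-coding, which are the ones given above. Farther out, KCTD9 had 105, 357 and 93 UMIs, DOCK5 127, 72 and 53, and PTK2B 189, 129 and 134. PPP2CB, 4.48 Mb to the right, was measured in both VCaP libraries. Counts of RNA do not show whether the DNA of this interval is present, which was not tested.

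Over a wider window the shares of higher and lower neighbours are given as a description, with no test. Within 10 Mb of PPP2R2A, 53.4% of 58 tested genes were higher and 19.0% lower in LNCaP–ENZ168 over VCaP–ENZ48, beside 26.8% and 28.1% of all genes tested. Over VCaP parental, 45.6% of 57 were higher and 19.3% lower, beside 28.4% and 30.2%. Between the VCaP libraries 20.9% of 43 were higher and 18.6% lower, beside 17.5% and 15%. Low VCaP counts also occurred away from the interval, as TNFRSF10D, at −3.16 Mb from PPP2R2A, had 163, 0 and 0 UMIs, NAT1, at −8.12 Mb, had 172, 0 and 3, and MICU3, at −9.26 Mb, had 127, 0 and 0, all named after their values were seen. Neighbouring genes are not independent, and the window counts include PPP2R2A and PPP2CB.

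**Figure D5:**
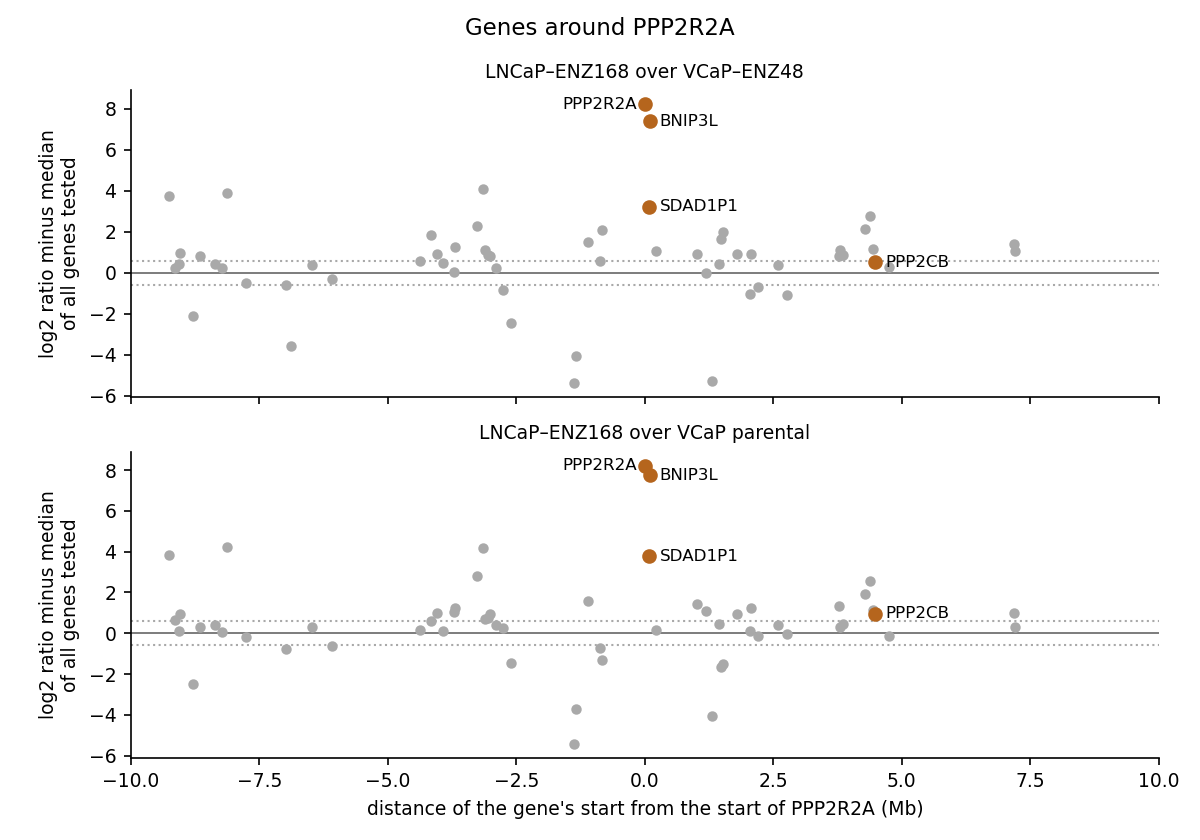
Relative log2 ratio of each tested gene within 10 Mb of PPP2R2A against the distance between gene starts (Mb), for LNCaP–ENZ168 over VCaP–ENZ48 (top) and over VCaP parental (bottom), with dotted lines at 1.5-fold. PPP2R2A and BNIP3L stand above all other genes of the window in both panels, SDAD1P1 lies lower and PPP2CB lies near the upper dotted line.

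Near-absence in VCaP at a high LNCaP level was rare. PPP2R2A was selected on this pattern, so its place among such genes is a description. Of 9019 genes with at least 10 CPM in LNCaP–ENZ168, 62 (0.687%) had at most 3 UMIs over both VCaP libraries, and of 1999 genes with at least 100 CPM, 7 (0.350%) did. These 7 were PPP2R2A, MMP16, ETV1, SH3BGRL, MAGEA3, EFNA5 and HMGN5, and PPP2R2A had the highest LNCaP level. The genes most like it, with 0 UMIs in both VCaP libraries and the highest LNCaP–ENZ168 level, were MMP16 at 185 CPM (174 to 195), ETV1 at 143 (134 to 152), SH3BGRL at 112 (104 to 121), MAGEA3 at 100.6 (92.9 to 109) and CSMD1 at 99.0 (91.4 to 107). They lie on chromosomes 8, 7, X, X and 8, and likeness was judged over the 3 libraries alone. BNIP3L, at 339 CPM with 5 VCaP UMIs, was nearer to PPP2R2A in level but fell outside both limits, and PPP2R2A itself, with 1 VCaP UMI, would not meet the limit of 0.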

How the data were processed

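Gencode genes were counted by the authors with Picard and the Drop-seq tools after STAR alignment to GRCh38, for an expected 1000 cells a sample. They deposited UMI counts, not normalized, for each gene and barcode, and the authors' cell filter for these libraries is not given in the sources used here. A gene without a row was counted as 0. Cells with at least 300 genes, 500 UMIs and at most 25% mitochondrial UMIs were kept and summed per library. Doublets were not called. Alternatives, among them the omission of barcodes deeper than 3 times the median, are given in the closing section. The members, lists and rules were chosen with earlier results of these data known. Named genes were the 10 members, genes of the wider PP2A list called higher or lower (up to 4 per comparison and direction by size), the 3 nearest protein-coding genes of at least 10 CPM on each side of PPP2R2A, PPP2CB, the 5 genes most like PPP2R2A and the markers, of which 1 is not reported here. Genes between the flanks, 3 farther neighbours, MME and the 7 genes of at least 100 CPM were named after their values were seen. Positions come from Gencode 44 on GRCh38, later than the authors' version. Intervals are exact Poisson, conditional binomial and Clopper-Pearson at 95%. On simulated data with 200 genes changed 4-fold, 100% were called in the right direction and intervals covered 95.2% of 7689 genes for VCaP–ENZ48 over VCaP parental. The simulated counts had Poisson error alone, so calls near 1.5-fold and variation between libraries were not examined. Python 3.11.15, numpy 2.4.6, pandas 2.3.3, scipy 1.17.1, matplotlib 3.10.9, R 4.3.3, Seurat 5.3.0 (phase genes) and edgeR 4.0.16 (TMM factors) were used.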

Additional observations from a re-analysis of the deposited data

How the results depend on the processing

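No paired analysis was possible because the study had 1 library for each group. No result changed direction among those called, and the cause of each change was not tested unless given. TMM factors shifted all log2 ratios by −0.29, −0.53 and −0.82 for VCaP–ENZ48 over VCaP parental, LNCaP–ENZ168 over VCaP–ENZ48 and LNCaP–ENZ168 over VCaP parental. Between the VCaP libraries, 4 of 7 tested members were lower with TMM and 3 of 6 with median-of-ratios factors, in place of 0 of 5. Higher was 1 of 6 with only barcodes ending in a base (PPP2CB) and 1 of 3 at a 50 CPM minimum (PPP2R1A). The log2 ratio of PPP2R1A between the VCaP libraries was 0.09 with TMM and 0.15 with median-of-ratios factors, in place of 0.44. In LNCaP–ENZ168 over VCaP–ENZ48, 8 of 10 tested members were higher and 0 lower both without centring and with no expression minimum. With TMM 7 of 9 were higher, and with median-of-ratios factors 7 of 9. With each cell weighted the same 3 were higher, without PPP2R5E. Over VCaP parental, 8 were higher and 0 lower without centring, 7 and 0 with no minimum, 1 and 0 at 50 CPM, where fewer members were tested, and 0 were lower at a fold of 2. The share of all genes called is given only for CPM without centring. The other counts are therefore not results about the members. The VCaP parental B55 shares in low-cycling cells, from 23 UMIs, were 0% for PPP2R2A, 13.0% for PPP2R2B, 52.2% for PPP2R2C and 34.8% for PPP2R2D. With only barcodes ending in a base they were 0% for PPP2R2A and 33.9% for PPP2R2D (59 UMIs), and PPP2R2B made up 38.7% in VCaP–ENZ48 (75 UMIs). Without barcodes above 3 times the median depth, PPP2R2C made up 29.4% there (262 UMIs). Of the levels, 225 moved by less than their interval and 45 by more, of the ratios 295 and 94, of the B55 shares 76 and 8, and of the shares of cells 38 and 52. Counting error allows PPP2R2A up to 0.286 CPM in VCaP parental, where it had 1 UMI. Its count of 0 in VCaP–ENZ48 allows 0.210 CPM at 3 UMIs and 0.258 CPM by the exact interval.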
